A study of Bos taurus with 10 samples.

Results

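The 61 cDNA clones described here gave a signal above a set limit in the lining of the uterus of cycling cattle and a signal at least 2-fold stronger in pregnant twins. They were chosen from 4608 clones (1.32%) by their measured intensities. A clone was kept where every control twin had a deposited intensity of at least 5 and every pregnant twin at least 2 times the intensity of its own control twin, in at least 4 twin pairs. The control levels and the ratios that chose the clones are therefore given as a description, and support nothing by themselves. The comparison belongs to a study of how the endometrium differs between pregnancy and the cycle shortly before the conceptus attaches.

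The animals were 10 non-lactating Simmental cattle, 5 pairs of monozygotic twins produced by splitting embryos, aged 69, 62, 61, 66 and 68 months in pairs 1 to 5. Both twins of pair 1 had 3 lactations recorded, and both twins of pairs 2 and 3 had 1. In pairs 4 and 5 the pregnant twin had 2 and the control twin 1, so the twins of these pairs were not matched in this. All had their cycles synchronised with the prostaglandin analogue cloprostenol. The pregnant twin of each pair received in vitro produced blastocysts and carried a conceptus when killed on day 18, and the control twin received a sham transfer of medium and was killed on day 18 of the cycle. Intercaruncular endometrium of the horn on the side of the transfer was sampled, in pregnant animals only where the tissue had touched an embryo. Each RNA was labelled with 33P and hybridised to a set of 3 arrays of subtracted cDNA clones, made by subtraction from pair 4 to favour RNAs raised by pregnancy. The clone set therefore over-represents transcripts of this kind by construction.

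In cattle the elongating conceptus secretes interferon tau in the days before attachment. This cytokine prevents the return to oestrus by keeping the endometrium from releasing luteolytic prostaglandin, and it induces the classical interferon-stimulated genes in the uterine lining. Progesterone from the corpus luteum also acts on the endometrium in pregnancy. Some endometrial transcripts are near the limit of detection before such signals arrive, and others are already present during the cycle and increase from that level. The clones here were chosen for control intensities of at least 5. The background of the arrays is unknown, so how far this level lies above the limit of detection was not tested. No file pairs the clones with genes, and 0 of the identifiers matched the RefSeq gene table of cattle, so the clones are named by library prefix, plate and well, and the labelled tissue could not be checked against marker genes.

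Some samples differed in ways the groups do not explain. In pair 2 the control twin is a cycling animal by its title and source, but its treatment text describes an embryo transfer and a pregnancy. Without pair 2 the rule found 65 clones, all 61 among them, because fewer pairs had to meet it. The minimum of 4 pairs was relaxed for this count, so clones measured in 4 pairs could stay. Pair 2 was also the brightest, with sample medians of 2.8 and 1.95, against 0.86 to 1.89 in the other samples. Array B of pair 4 was too weak and was left out by the authors. For that reason 53 of the 61 clones had values in 5 pairs and 8 had values in 4 pairs. Sample medians were higher in every pregnant twin than in its control twin, but this difference was not seen in the other clones that met the control minimum. The 849 other clones with control values of at least 5 had median ratios as deposited of 0.964, 0.999, 0.976, 0.947 and 0.957 in pairs 1 to 5. These 849 exclude by definition the clones that reached the ratio in every pair. Bringing all samples to a common median moved their median log2 difference from -0.06 to -0.62. Centred differences of bright clones are thus lower than those as deposited, and which scale is nearer the true change was not tested.

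In control animals the 61 clones were already among the brighter clones on the arrays, and in pregnant animals they were among the brightest. Their mean control intensity ran from 9.2 to 82.3 with a median of 21.7, against a median of 1.45 for all clones. The mean intensity in pregnant animals ran from 32.6 to 509 with a median of 143, against 2.12 for all clones. Ranked within each sample, the clones moved from a median percentile of 85.9 in controls to 96.1 in pregnant animals. No clone of the 61 lay in the top 5% of control samples on average, whereas 37 lay in the top 5% of pregnant samples.

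The 61 clones took 2.35% ± 0.932 (SD, n = 5) of the summed intensity of all clones in control animals and 11.1% ± 2.28 (SD, n = 5) in pregnant animals. In the control twins of pairs 1 to 5 this share was 2.43%, 2.32%, 1.29%, 3.81% and 1.89%. In the pregnant twins it was 10.5%, 12.3%, 7.76%, 13.9% and 10.9%. The lowest pregnant share, in pair 3, thus exceeded the highest control share, in pair 4. In pair 4 the sums cover 3071 clones and 53 of the 61. The summed intensity of the clones rose 5.26-fold to 7.07-fold over the pairs, while that of all clones rose 1.16-fold to 1.5-fold. These sums follow from the choice of the clones. They cannot tell apart more RNA per cell from more cells of the expressing type, since whole tissue was hybridised.

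Over the pairs the geometric mean ratio of a clone ran from 2.58 to 26.5, with a median of 5.85 and a middle range of 3.74 to 8.09. At least 4-fold was reached by 43 clones, at least 8-fold by 16 and at least 16-fold by 5. A moderated linear model (limma) was fitted to all clones with the twin pair as a block, after each sample had been brought to a common median. It called all 61 higher in pregnancy, against a background of 11.5% of the 4608 clones, and on the values as deposited it again called all 61, against a background of 15.9%. The rule used the same contrast, so nothing is read from these counts. The fitted log2 differences of the 61 ran from 0.79 to 4.18 after centring, with a median of 1.99, against a median of -0.33 for all clones. Without the pair block the same model called 39 of the 61.

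The clones with the strongest increase were bright in every pregnant animal. Clone 18c-29-E08 had intensities of 324, 381, 557 and 773 in the pregnant twins of pairs 1, 2, 3 and 5. In the control twins of these pairs it had 17.7, 12.5, 16.6 and 29. Its lowest pregnant value was more than 10 times its highest control value, and its mean went from 19 ± 7.07 (SD, n = 4) to 509 ± 202 (SD, n = 4), a geometric mean ratio of 26.5. After centring the log2 difference was 4.18 (SE 0.224; limma, adjusted p = 7.05e-05).

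Clone 18c-2(VS)-D08 had 223, 207, 345 and 410.2 in the pregnant twins of pairs 1, 2, 3 and 5, and 10.6, 8.82, 10.7 and 21.2 in the control twins. The highest control value came from pair 5, whose pregnant twin was also the brightest. The geometric mean ratio was 23.6. Clone 18c-01-A01, measured in all pairs, had 296, 531, 149, 247 and 215 in pregnant twins of pairs 1 to 5. Its control values were 15, 27.6, 8.4, 10.8 and 6.91. Pair 2 gave the highest value of both groups, and the ratios stayed between 17.8 and 31.2 although control intensities spanned a wide range. After centring its log2 difference was 3.86 (SE 0.226; limma, adjusted p = 3.81e-05).

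The other clones above 16-fold were 18c-10-G12 and 18c-02-H01, with geometric mean ratios of 20.7 and 16.6. All 5 clones above 16-fold had the prefix 18c. Below them came a gap, and the next clone, 18c-19-H05, had a ratio of 11.1 over 4 pairs. The control means of the 5 clones lay between 12.8 and 19.5, below the median of the 61. Over the 61 clones the control mean and the mean log2 ratio had a Spearman correlation of -0.28, a description over clones that share samples and a lower limit on both quantities.

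The clones brightest in cycling endometrium had smaller ratios than those above 16-fold. Clone 18c-1(VS)-E03 had the highest control mean, 82.3 ± 45.3 (SD, n = 4), with 49.7, 66.3, 64 and 149 in the control twins of pairs 1, 2, 3 and 5. In the pregnant twins of these pairs it reached 216, 396, 428 and 889.5. Each pregnant value exceeded every control value, and the ratios lay between 4.34 and 6.7. Their geometric mean, 5.67, was near the median of 5.85 for the 61. After centring the log2 difference was 1.95 (SE 0.213; limma, adjusted p = 0.00161). Without the pair block that call was lost (limma, adjusted p = 0.0952).

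Clone 18c-08-A03 had control values of 31, 179.7, 58.6, 42.1 and 44 and pregnant values of 92.1, 487, 165, 153 and 128 in pairs 1 to 5. In pair 2 the control twin was brighter than 4 of the 5 pregnant animals, so the groups overlapped, but the ratio within pairs stayed between 2.71 and 3.64. Clone 18e-1(VS)-G11 had 75.6, 108, 31, 60.4 and 63.3 in controls and 218, 309.9, 134, 186 and 159.6 in pregnant twins. Here the groups did not overlap, and the ratios were 2.52 to 4.32.

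For 50 of the 61 clones the lowest pregnant value lay above the highest control value, against a background of 7.86% of all clones. The other 11 overlapped between groups although every pair was higher in pregnancy. Their geometric mean ratios were 2.58 to 9.85. The highest, 9.85, came from a clone with little overlap. Its lowest pregnant value was 36.4 and its highest control value 38.2. The next highest ratio was 4.59, below the median of 5.85 for the 61. Overlap was thus mostly found among clones with smaller ratios. As the rule fixed the direction in each pair, the absence of overlap describes how the level of a clone differed between animals. After centring, the between-animal SD of the log2 intensity had a median of 0.61 in pregnant and 0.62 in control animals over the 61 clones. It was larger in the pregnant group for 24 of the 61 (39.3%), against 49.6% of all clones.

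Levels of the clones differed between pairs in the same way in most clones. Of the 53 clones measured in 5 pairs, 44 had their highest control value in pair 2 and 42 had their highest pregnant value there. The lowest control value fell in pair 3 for 38 clones, and the lowest pregnant value for 43. Twins were thus high or low together, and most of the difference between pairs cancelled in the ratio. The summed intensity of all clones was also highest in both twins of pair 2. Among pairs with all arrays it was lowest in pair 3. Sample medians were lowest in pair 4, at 1.36 and 0.86, but cover only the 3071 clones measured there. These counts are on values as deposited and were not taken over all clones, so they cannot be told apart from the brightness of the samples. The highest ratio of a clone was a median 1.81 times its lowest.

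The ratio itself differed between pairs less than the levels did. The median ratio of the clones was 5.13, 6.52, 6.66, 5.12 and 6.54 in pairs 1 to 5. The same median over all clones was 1.2, 1.19, 1.33, 1.38 and 0.98. Pair 5 had the highest ratio for 19 of the 53 clones measured in 5 pairs, pair 3 for 15, pair 4 for 11, pair 2 for 5 and pair 1 for 3. The lowest ratio fell in pair 4 for 21 clones and in pair 1 for 15. The source pair of the libraries, pair 4, thus had more of the lowest ratios than of the highest. After centring the medians were 3.66, 4.54, 3.65, 3.24 and 5.15, so the order of the pairs depended on the scaling.

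The most uniform clones rose by nearly the same factor in all animals. Clone 18f-02-A11 had 57, 88.7, 22.9, 32.5 and 37 in pregnant twins and 15, 21.2, 6.2, 8.39 and 9.59 in control twins. Its ratios were 3.8, 4.19, 3.69, 3.88 and 3.86, the smallest spread of the clones measured in 5 pairs (SD 0.07 of the log2 ratio). The groups nearly touched, with a lowest pregnant value of 22.9 in pair 3 and a highest control value of 21.2 in pair 2.

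Clone 18e-2(VS)-H07 had the next smallest spread (SD 0.12), at a higher ratio. It had 264, 386, 83.2, 224 and 230.3 in pregnant twins and 38.2, 54.4, 11.3, 31.8 and 27.4 in controls. The ratios were 6.9 to 7.39 in pairs 1 to 4 and 8.42 in pair 5. In all, 14 of the 61 clones kept their ratios within 1.5-fold of each other, and 19 spread over more than 2-fold.

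Other clones differed between pairs by more. Clone 18f-1(VS)-A07 had 265, 375, 87.9, 158 and 198 in pregnant twins, which did not set pair 5 apart. Its control values were 25.4, 42, 8.43, 32.5 and 5.9, so the control twin of pair 5 was the lowest. The ratio was 33.5 in pair 5 and 4.87 in pair 4.

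Clone 18f-05-D08 showed a different pattern, with control values of 84, 21.5, 11, 12.8 and 23.7. Its pregnant values were 202, 67.8, 42.3, 164 and 92.9. The ratio was 12.8 in pair 4 and 2.4 to 3.93 in the other pairs. The high control value of pair 1 lay above 2 of the pregnant values, so the groups overlapped. After centring its log2 difference was 1.53 (SE 0.334; limma, adjusted p = 0.0203). The call was lost without pair 2, 3 or 5 (limma, adjusted p = 0.0551, 0.0515 and 0.0622) and without the pair block (0.204). Ratios spread over more than 4-fold in 6 clones.

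The limits of the rule ran through a continuous range of clones. The lowest single ratios inside it were 2 for 18f-02-E12, in pair 2, and 2.01 for 18f-2(VS)-B10, in pair 4. Just outside were 18c-01-C11, with a lowest ratio of 1.98 in pair 4, and 18e-02-A12, with 1.88 in pair 1. At the control minimum, 18e-06-C08 had a lowest control value of 5.48 in pair 3 and 18c-2(VS)-H07 one of 5.66 in pair 1. Outside it, 18c-2(VS)-H01 reached 4.31 and 18c-29-G09 reached 4.25, both in pair 2, with ratios of 7.53 or more and 15.7 or more in all 4 pairs measured. After centring 42 of the 61 clones still met the whole rule, where 5.99% of all clones met its ratio. The other 19 fell below a ratio of 2 in at least 1 pair, and their ratios as deposited had geometric means of 2.58 to 4.65.

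Each pair was also left out in turn and clones were chosen on the other pairs alone, so that the pair left out had no part in the choice. The minimum of 4 pairs was relaxed here, so clones measured in 4 pairs could be chosen on fewer. In pair 3 all 64 clones chosen on the other pairs and measured there reached a ratio of 2. The share was 96.9% in pair 2 (63 of 65), 93% in pair 4 (53 of 57) and 96.9% in pair 5 (62 of 64). In pair 1 it was 65.6% (61 of 93). Of all clones, 28.8%, 19%, 35.8%, 20.2% and 22% reached that ratio in pairs 3, 2, 4, 5 and 1. Among clones with control values of at least 5 in the other pairs, the shares in the same order were 15.8%, 15.4%, 21%, 13.4% and 10.7%. Every chosen clone was brighter in the pregnant twin of the pair left out, with a lowest ratio of 1.13 in pair 1. Array sets, libraries and recurring cDNAs are shared by these clones, so the shares carry no test.

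Pair 1 decided the membership of more clones than any other pair. Leaving it out added 32 clones, which met the control minimum and the ratio in the other pairs and had ratios below 2 in pair 1. Of these, 23 had the prefix 18e, 6 the prefix 18f and 3 the prefix 18c. The 3 clones of 18c had values in only 4 pairs, so they entered because the minimum of 4 pairs was relaxed. The control twin of pair 1 had the highest control value in all 29 of the 18e and 18f clones, as deposited and after centring, against 8 and 12 of the 53 clones above. The choice favours this contrast, since the 29 were picked for a low ratio in pair 1 and the 53 for a ratio of at least 2 there. The median control intensity of the 29 was 96.5 in pair 1, against 24.8, 10.5, 39.2 and 21.4 in pairs 2 to 5. In pregnant twins the medians were 150.1, 76.1, 57.4, 149 and 89.9. In the control twin of pair 1 the median thus exceeded the pregnant medians of pairs 2, 3 and 5. The median ratios were 1.62, 2.89, 5.45, 3.51 and 3.86.

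Groups of clones with like profiles were then formed among the 53 clones measured in 5 pairs, from centred log2 values with each group's mean removed. The correlation between clones over the 10 samples had a median of 0.5, against 0.17 among all 585 clones with control values of at least 5 in 5 pairs. The 53 are among the 585. The rule favours clones with even ratios over the pairs, so part of this difference may follow from the choice, which was not tested. At a mean correlation of at least 0.95 there were 9 groups that held 26 clones. Clones of a cDNA can recur in a subtracted library, and 5 groups were of a single prefix. Whether the clones of a group are copies of a transcript was not tested, since no sequence of the clones was used here. The clones of a group are not independent measurements.

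The largest group held 18f-01-E12, 18f-01-F06, 18f-01-H06, 18f-02-A06 and 18f-04-D12. Their mean intensities in pregnant twins were 188, 286, 90, 122 and 180 in pairs 1 to 5, and in controls 21.7, 38, 8.13, 21.9 and 18.2. The geometric mean ratio of the group was 8.61, 7.54, 11.1, 5.64 and 9.88, lowest in pair 4. Single clones stayed close to these values, for example between 4.86 and 6.6 in pair 4 and between 10.7 and 11.5 in pair 3.

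A second group, 18e-02-H11, 18e-02-H12, 18e-04-D12 and 18e-06-E06, stood close to the limit in pair 1. Its ratio was 2.43, 2.75, 6.26, 3.62 and 4.11 in pairs 1 to 5. The mean control intensity was 81.9 in pair 1 and 26.2, 10.1, 34.7 and 27 in the others. In pregnant twins the means were 202, 72.6, 62.2, 128 and 114. Among all 2943 clones with values above 0 in all 10 samples, 29 others had a correlation of at least 0.95 with the mean profile of this group, 23 of prefix 18e and 6 of prefix 18f. None of those 29 was among the 61. Of the 32 clones lost in pair 1, 19 were among them. The rule therefore kept 4 clones of a larger set of like profile, whose median ratio was 3.34.

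The group of 18e-1(VS)-G08, 18f-1(VS)-A07, 18f-2(VS)-E02 and 18f-2(VS)-E08 had its highest ratio in pair 5. The group's ratio was 6.51, 9.02, 8.76, 4.77 and 20.4 in pairs 1 to 5. In controls the mean intensities were 26.7, 34.7, 7.59, 25.7 and 7.75, and in pregnant twins 179, 312, 67.3, 123 and 158. Its control level in pair 5 was as low as that in pair 3, whereas its pregnant level in pair 5 was more than 2 times that in pair 3.

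A group of 18e-01-A02, 18e-01-A03 and 18e-06-C08 had ratios of 5.77, 8.88, 9.18, 6.09 and 9.42. The remaining groups were of 2 clones each. The tightest, 18c-02-C02 and 18c-15-F11, correlated with r = 0.996 and had a ratio between 6.22 and 8.51 in every pair. Its control level was highest in pair 2, at 59.8, against 9.9 to 26.2 in the others.

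On the deposited scale, 18e-01-G04 and 18c-01-C12 were most like 18c-01-A01 over the 10 samples (r = 0.94 and 0.93, group means removed). Their geometric mean ratios were 5.73 and 5.47, against 21.7 for 18c-01-A01, so a like pattern between animals went with a different size of increase. Among the clones measured in 5 pairs, 18c-08-A03 had the highest control mean. Most like it were 18c-04-A08 (r = 0.97) and 18c-06-A07 (r = 0.88), with ratios of 2.64 and 2.58. These correlations hold the brightness of the samples, and the last fell to 0.63 after centring.

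The position of a clone on the plates was not used by the rule. The prefix 18c gave 22 of the 61 clones, 18e gave 19 and 18f gave 20, although 18c supplied 66.7% of all clones and 18e and 18f 16.7% each. Clones of 18e and 18f together made up 63.9% of the 61, 33.3% of all clones and 40.8% of clones with control values of at least 5. Of the latter, 16.2% of 18e, 7.87% of 18f and 4.08% of 18c clones met the ratio. Among the chosen clones, those of 18f had a median ratio of 7.35, those of 18c one of 5.75 and those of 18e one of 5.73. All 18e and 18f plates were measured in pair 4. The 18c plates lacking pair 4 gave 8 clones and the other 18c plates gave 14, of 1536 clones each. Among their clones with control values of at least 5 this was 2.46% of 325 and 6.54% of 214. The plates lacking pair 4 had fewer pairs in which to meet the rule, so these shares are not matched.

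Of the 48 plates, 28 held at least 1 of the clones, and no plate held more than 5. Plates marked VS, a mark the labels do not explain, held 14 of the 61 (23%) and 12.5% of all clones. VS plates make up a larger part of the 18e and 18f plates than of the 18c plates. This share is therefore tied to that of the prefixes, and the mark was not tested apart from them. Column 12 of the plates held 12 of the 61 and column 8 held 10, whereas each column holds 8.33% of all clones. These columns are given because their counts were the highest, and the others held 2 to 6. Clones of a profile group are not independent, so the counts carry no test. Side-by-side wells held 2 of the clones in 3 cases, 18e-01-A02 with A03, 18e-01-G04 with H04, and 18e-02-H11 with H12. Thus 6 of the 61 (9.84%) had another of them in an adjoining well, against 196 of the 4547 remaining clones (4.31%). All 3 cases were on 18e plates, where 2.47% of clones were among the 61, against 1.32% of all clones. The share over all plates is therefore not a matched background. The first and the last of these fell within a profile group described above.

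The clones can be set beside 343 others that met the ratio in every pair but had a control value below 5 in at least 1. Of all clones, 8.77% met the ratio in every pair as deposited. Of clones with control values of at least 5, 6.7% met the ratio in every pair (61 of 910), against 9.28% of the remaining clones (343 of 3698). The low-control clones had a median ratio of 9.3 and a median pregnant intensity of 8.45, a larger factor and a lower level than those of the 61. Their median increase in intensity was 7.47, against 124 for the 61. The SD of the log2 ratio over pairs had a median of 0.36 for the 61, 0.74 for the low-control clones, 0.43 for the other 849 clones with control values of at least 5, and 0.59 for all clones. The median control mean was 0.932 for the low-control clones and 21.7 for the 61. How far low signal enters the ratios of the former was not tested. The 61 had to reach a ratio of 2 in every pair, which favours even ratios, whereas the 849 did not. Among low-control clones measured in 5 pairs, pair 3 had the highest ratio in 132 of 271 and pair 2 the lowest in 118. The low-control clones took 0.785% ± 0.282 (SD, n = 5) of the summed intensity in controls and 9.95% ± 2.42 (SD, n = 5) in pregnant twins.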

How the data were processed

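The authors deposited 1 intensity per clone and sample, on a linear scale, and per the labels left out array B of pair 4. How the images were read, corrected and scaled is not given in the sources used here. The number of arrays limits the precision. Ratios within twin pairs were taken from the intensities as deposited. For the fit, each sample was divided by its own median and multiplied by the geometric mean of the 10 medians, values below the 5th percentile of positive values (0.116) were raised to it, and limma 3.58.1 in R 4.3.3 was run on log2 values of all 4608 clones, with Benjamini-Hochberg adjustment (threshold 0.05). On simulated data with 4608 clones it recovered 33% of 100 clones changed by 1 and 84% of 100 changed by 2 (log2). Twins were paired by animal number and age. Their deviations from the group means correlated with r of 0.33 to 0.73 over 3071 clones, and each sample matched its own twin best, so the pair was a block.

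The clones and the rules for naming them were chosen with earlier results of these data known. Named are the extremes in ratio, control level and spread, the clones beside each limit and the most alike. The profile groups, the set lost in pair 1 and the clones 18c-10-G12, 18c-02-H01 and 18c-19-H05 were chosen after their values were seen. Alternatives were other scalings, limits, floors and filters, no block, and each pair left out.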

Additional observations from a re-analysis of the deposited data

Results flagged for a closer look

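In 58 groups of 4 or 5 values, 10 had a value far from the rest, where chance marks about 1 in 20 for a single group. The groups share samples, so the marks are not independent of one another. Some of the clones were named for extreme values, and the intensities are on a linear scale. The 10 marks can therefore not be measured against that rate. The animals of pair 2 gave 6 of these. Clone 18c-04-A08 had 116 in the pregnant twin of pair 2 (37.3 to 52.7 in the other pregnant animals) and 44.2 in its control twin (12.5 to 20.8 in the other controls). Clone 18c-08-A03 had 487 (92.1 to 165) and 179.7 (31 to 58.6) in the same animals. For 18c-06-A07 the control twin of pair 2 had 47 (19.7 to 24.4). The pregnant twin had 268 for 18e-06-C08 (53.1 to 112). The control twin of pair 5 had 149 for 18c-1(VS)-E03 (49.7 to 66.3) and 21.2 for 18c-2(VS)-D08 (8.82 to 10.7). The control twin of pair 1 had 84 for 18f-05-D08 (11 to 23.7). Of the clones chosen without pair 1, 65.6% reached a ratio of 2 there. For the other pairs this share was 93% to 100%.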

How the results depend on the processing

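The rule found 61 clones. It found 28 with a control minimum of 10 and 100 with a pair allowed below the ratio. With a pair left out it found 64 to 93 clones, 93 without pair 1, and all 61 were among them in each case, as fewer pairs had to meet the rule. The median log2 ratio of 2.55 became 2.77 and 2.09 with control minimums of 2 and 10, 2.07 and 2.97 with ratios of 1.5 and 3, and 1.93 with a pair allowed below the ratio. It was 2.16 (without pair 1) to 2.58 with a pair left out. Without the replicate block limma called 294 clones higher instead of 530, and 39 of the 61. With a pair left out it called 353 (without pair 5) to 462 clones, and 52 (without pair 3) to 60 of the 61. The share of 18e and 18f clones, 63.9%, was 50% at a control minimum of 10, an alternative chosen after seeing the data. At a correlation of 0.9 there were 10 profile groups with 36 clones, also chosen after seeing the data. Of 158 refits of the 18 named clones that met the rule, 130 kept their side of the threshold, 28 lost the call and none turned direction. The other alternatives run stayed within 1.5 times the counts or 1 SD of the values given. The absence of gene names and the unknown background of the arrays limit what the intensities show.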
